A study of Mus musculus with 2 samples.

Results

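The genes of the mouse major histocompatibility complex (MHC, called H2 in the mouse) and of antigen presentation were examined as 1 group of 44 genes among the 17002 genes in the table. They comprised all 32 genes whose symbol begins with H2- and 12 others: the light chain gene B2m, the peptide transporter and loading genes Tap1, Tap2, Tapbp and Tapbpl, the peptidase gene Erap1, the immunoproteasome genes Psmb8, Psmb9 and Psmb10, the transactivator genes Nlrc5 and Ciita, and the invariant chain gene Cd74. Members were chosen by symbol and not by their values, though with earlier results of these data known. The libraries came from C57BL/6 mice, 1 of genotype wild type and 1 of genotype lncRNA-GM-/-, the knockout library being named ko8. Naive CD4+ T cells were isolated from the spleen and held for 3 days under conditions that polarise towards Th17 cells, which applied to both genotypes. For the age and number of the mice, and for any pooling, the sources used here give no entry. No gene in the table was assigned to lncRNA-GM, which was not analysed here, so its target did not check the knockout label.

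MHC class I molecules sit on nearly all nucleated cells and show peptides from inside the cell to CD8+ T cells. A class I molecule pairs a heavy chain with β2-microglobulin, and its peptide is cut by the proteasome, pumped into the endoplasmic reticulum by the TAP transporter and loaded with the help of tapasin. MHC class II molecules, made mainly by dendritic cells, macrophages and B cells, show peptides from endosomes to CD4+ T cells, and mouse T cells are generally held to make little of them. The class I genes fall into the classical genes H2-K1 and H2-D1 and the non-classical Q, T and M genes, several of which are recent duplicates of each other.

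Levels are FPKM, the fragments of a gene per kilobase of its transcript, scaled to the fragments of the whole library. Ratios are knockout over wild type, as log2 of FPKM + 1. A gene with at least 1 FPKM in 1 library was counted as measured, and a gene was called higher or lower from 1.5-fold. With 1 library per genotype there was no replicate check and no test of the genotype, and each difference describes these libraries. Solving the deposited p-values for reads gave a depth of about 19.5 M fragments for wild-type and 19.2 M for knockout cells. Intervals given below are 95% Clopper-Pearson intervals on the log2 ratio of reconstructed reads, cover counting error only, and use no added 1 FPKM, so that they can lie beyond the ratio of a gene with low levels. Of the markers of conventional T cells, 0 of 7 were 1.5-fold apart, and their summed level was 2704 FPKM in wild-type cells and 3091 FPKM in knockout cells. All 8 measured markers of CD8 T and natural killer (NK) cells were lower, and the level summed over that list of 10 was 1743 FPKM in wild-type and 592 FPKM in knockout cells.

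Of the 44 members, 39 were measured. In the knockout library 8 of these (20.5%) were at least 1.5-fold higher, against 2.71% of all 10998 measured genes, and 6 (15.4%) were at least 1.5-fold lower, against 5.19%. The other 25 lay within 1.5-fold, and the median ratio of the members was −0.02, beside −0.03 over all measured genes. The higher members were Cd74, H2-Ab1, H2-Aa, H2-Eb1 and H2-Ob of the class II pathway and H2-Q7, H2-T10 and H2-D1 of class I. The lower members were H2-Q2, H2-Q10, H2-M2, H2-Q1, H2-M3 and H2-T24, all of them non-classical class I genes. The 5 members under 1 FPKM in both libraries were H2-T3, H2-M5, H2-M10.3, H2-Eb2 and Ciita, which ranged from 0 to 0.36 FPKM.

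**Figure D1:**
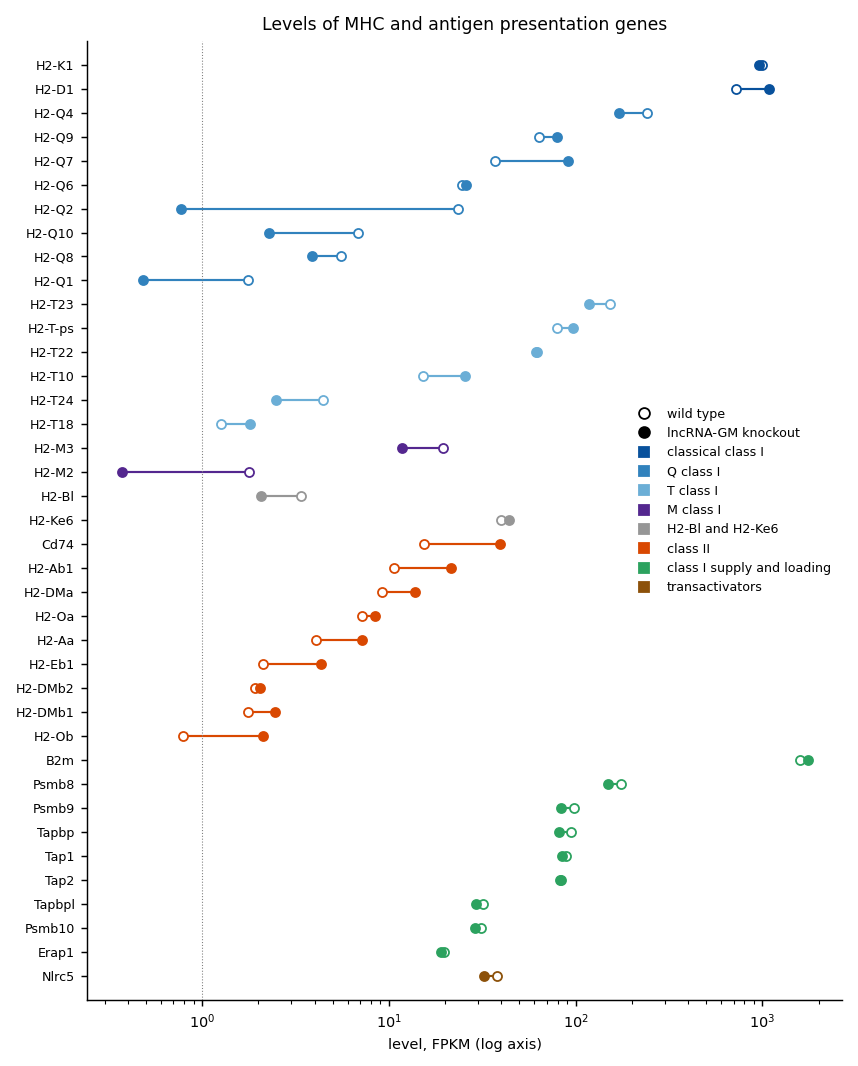
Level of each of the 39 measured members in FPKM on a log axis, with open circles for the wild-type library, filled circles for the knockout library and colours for the gene groups. B2m and the classical genes H2-K1 and H2-D1 lie at the right end, the class II genes lie between 0.79 and 39.4 FPKM and further right in the knockout, and H2-Q2 has the widest gap.

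The classical class I genes encode the heavy chains that present peptide to CD8+ T cells, and they were among the most abundant transcripts of both libraries. In GRCm38.p6, H2-K1 lies on chromosome 17 from 33996012 to 34000619. Its level was 996 FPKM in wild-type cells and 961 FPKM in knockout cells, ranks 87 and 88 of 17002 genes. H2-D1 lies on chromosome 17 from 35263094 to 35267497. Its level was 719 FPKM in wild-type cells and 1086 FPKM in knockout cells, ranks 111 and 79. The log2 ratio was −0.05 for H2-K1 (interval −0.07 to −0.03) and 0.59 for H2-D1 (interval 0.57 to 0.62). The level of H2-D1 per H2-K1 was 0.722 in the wild type and, on the deposited values, 1.13 in the knockout. H2-D1, at 1.51-fold, lay just past the 1.5-fold limit.

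The H2-K1 value carries a limit of the deposited data. The authors' deposited table gives H2-K1 a p of 1.81e-60. A read ratio equal to its FPKM ratio would need 440444 wild-type reads to give that p, whereas its level and transcript length give about 30437. At 30437 reads the same p would need a log2 read ratio of −0.19 or 0.19, and the table does not show which. With H2-K1 moved by that much, its knockout level would be 870 or 1140 FPKM and H2-D1 per H2-K1 would be 1.25 or 0.953, so which classical gene was the more abundant in the knockout is uncertain. For H2-D1 the authors' deposited p is listed as 0, so its reads could not be solved from it. They were taken from its transcript length, and its interval rests on them. The check made for H2-K1 was therefore not possible for H2-D1. The transcripts of H2-D1 and H2-K1 are 91.3% identical over 83.5% of the shorter one. H2-Q4, at a ratio of −0.50, is 91.6% identical to H2-D1 over 52.4% and 91.4% identical to H2-K1 over 60.2%. These identities are below the 95% at which copies were read together here. How the counting divided the reads shared among these genes is not given in the sources used here. Added up, the classical pair was at 1715 FPKM in wild-type cells and 2047 FPKM in knockout cells, a log2 ratio of 0.26.

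The promoters of class I genes carry an NF-κB site, an interferon-stimulated response element (ISRE) and, nearer to the start, an X and Y box module that Nlrc5 acts through. The RefSeq promoter table for GRCm38.p6 held a window of 250 bases before to 50 bases after the start for 31 of the 44 members. The windows of H2-K1, H2-D1, H2-Q7 and H2-Q2 are shown because these 4 genes span the range of class I ratios, from −3.79 to 1.28. They are chr17:34000298-34000597 (minus strand) for H2-K1, chr17:35262844-35263143 (plus strand) for H2-D1, chr17:35438905-35439204 (plus strand) for H2-Q7 and chr17:35342057-35342356 (plus strand) for H2-Q2. Capitals mark matches on either strand to the κB letters GGGANTCCC, the ISRE core TTTCNNTTC, the X2 core TGACG and the Y box GATTGG, which reads CCAATC on the other strand.
H2-K1: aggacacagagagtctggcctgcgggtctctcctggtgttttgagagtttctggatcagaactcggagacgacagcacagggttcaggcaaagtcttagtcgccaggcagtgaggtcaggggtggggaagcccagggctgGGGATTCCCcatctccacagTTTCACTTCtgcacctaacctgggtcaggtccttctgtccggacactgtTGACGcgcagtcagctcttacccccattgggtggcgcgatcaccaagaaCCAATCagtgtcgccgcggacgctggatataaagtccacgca
H2-D1: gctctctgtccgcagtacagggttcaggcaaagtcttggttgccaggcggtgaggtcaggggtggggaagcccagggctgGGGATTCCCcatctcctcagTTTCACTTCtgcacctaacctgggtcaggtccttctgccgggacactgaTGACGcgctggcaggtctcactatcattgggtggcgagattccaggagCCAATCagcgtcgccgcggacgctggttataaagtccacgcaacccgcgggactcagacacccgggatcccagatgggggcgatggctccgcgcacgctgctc
H2-Q7: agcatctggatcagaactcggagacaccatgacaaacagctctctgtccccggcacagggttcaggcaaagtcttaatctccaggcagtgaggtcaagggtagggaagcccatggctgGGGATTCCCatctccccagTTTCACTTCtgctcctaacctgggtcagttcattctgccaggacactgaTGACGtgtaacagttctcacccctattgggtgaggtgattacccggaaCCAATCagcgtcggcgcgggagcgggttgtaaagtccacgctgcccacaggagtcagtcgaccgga
H2-Q2: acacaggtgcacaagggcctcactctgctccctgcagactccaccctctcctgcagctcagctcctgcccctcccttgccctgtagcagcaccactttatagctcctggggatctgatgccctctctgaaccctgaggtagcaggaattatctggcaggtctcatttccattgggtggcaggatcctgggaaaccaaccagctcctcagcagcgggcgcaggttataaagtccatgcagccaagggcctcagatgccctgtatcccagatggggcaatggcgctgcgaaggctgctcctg
H2-K1, H2-D1 and H2-Q7 each held a κB, an ISRE, an X2 and a Y box match in the same order. H2-Q2 held none of these letters in its window, which says nothing of binding. The starts used for the H2-K1 and H2-Q7 windows differ from the ends of the gene positions given in the text. The H2-K1 window lies inside the span of its gene, and its Y box match lies after the start used, at position 9.

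Across the 15 heavy chain genes with a window, κB was found in 4 (H2-K1, H2-D1, H2-Q6 and H2-Q7), ISRE in 8, X2 in 8 and the Y box in 9. Over all 32851 promoter windows the shares were 0.767% for κB, 7.52% for ISRE, 20.8% for X2 and 16.1% for the Y box. Whether the letters go with the ratios was not tested. The 4 genes with a κB match had ratios of −0.05, 0.59, 0.07 and 1.28. ISRE was shared by H2-Q7, at 1.28, and by the lower genes H2-Q10, H2-M3 and H2-M2, at −1.26, −0.67 and −1.03. X2 was held by H2-D1 and H2-Q7 and also by H2-M3 and H2-M2. Measured genes with a Y box match had ratios from −0.50 for H2-Q4 to 1.28 for H2-Q7. None was called lower, but they are few and include near-identical copies, H2-Q6 with H2-Q7 and H2-T23 with H2-T-ps. H2-Q10, H2-M3 and H2-M2 held neither a κB nor a Y box match.

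The 8 Q genes, which encode non-classical class I molecules, went both ways, with 1 higher, 3 lower and 4 within 1.5-fold and a median of −0.46. Among all measured genes 2.71% were higher and 5.19% lower. Their summed level was close, at 404 FPKM in wild-type cells and 375 FPKM in knockout cells. H2-Q4, the most abundant of them, was at 242 FPKM in wild-type cells and 171 FPKM in knockout cells, a ratio of −0.50 (interval −0.55 to −0.45). The Q genes therefore held similar total RNA in the 2 libraries with a different make-up.

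H2-Q2 differed most of all members. It lies on chromosome 17 from 35342307 to 35346764 and was at 23.5 FPKM in wild-type cells and 0.77 FPKM in the knockout, on about 442 and 14 reads. The ratio was −3.79, or 13.9-fold lower, with an interval from −5.81 to −4.18 on reads. Its size depends on the added FPKM, the ratio being −4.76 with 0.1 and −2.31 with 5. Its neighbour H2-Q1, from 35320525 to 35328142, had 1.75 FPKM in wild-type cells and 0.48 FPKM in the knockout, a ratio of −0.89. Their transcripts are 96.2% identical over 80.3% of the shorter one, so they were also read as a pair. The pair was at 25.3 FPKM in wild-type cells and 1.25 FPKM in the knockout, a ratio of −3.55, and so was low in the knockout however their reads were divided between them.

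H2-Q6, H2-Q7, H2-Q8 and H2-Q9 encode Qa-2, a class I molecule anchored in the membrane by a lipid. H2-Q7 lies on chromosome 17 from 35439140 to 35443773. Its level was 36.9 FPKM in wild-type cells and 90.8 FPKM in the knockout, 2.42-fold higher (ratio 1.28, interval 1.19 to 1.41). H2-Q9 was at 63.2 and 79.9 FPKM, a ratio of 0.33. H2-Q6 was at 24.6 and 26.0 FPKM (0.07), and H2-Q8 was at 5.55 and 3.89 FPKM (−0.42). Of the 4, H2-Q7 alone was past 1.5-fold. Because H2-Q6 and H2-Q7 are 95.9% identical, and H2-Q8 and H2-Q9 carry the same Qa-2 name in RefSeq, the 4 values are uncertain singly. Their sum was 130 FPKM in wild-type cells and 201 FPKM in knockout cells, a ratio of 0.62 (interval 0.55 to 0.67), or 1.53-fold higher. H2-Q10, which encodes a secreted class I molecule known from the liver, was at 6.81 FPKM in wild-type cells and 2.27 FPKM in the knockout, a ratio of −1.26 (interval −2.02 to −1.17).

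**Figure D2:**
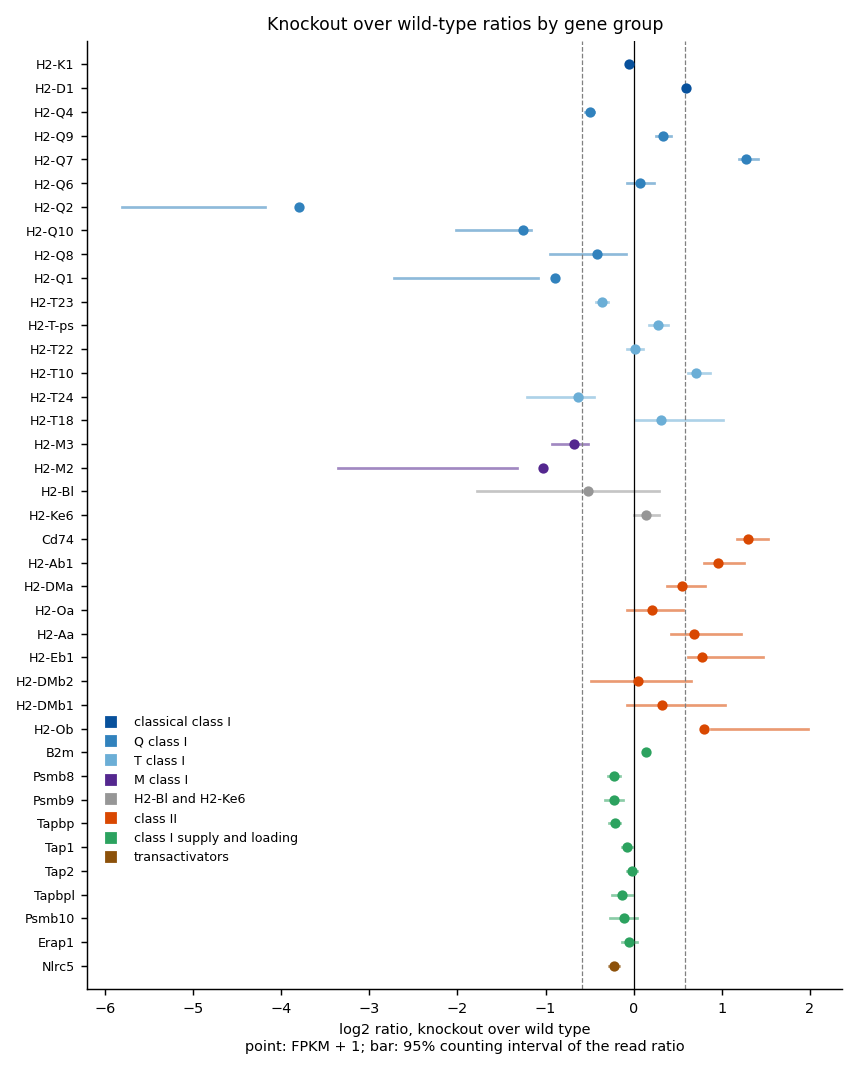
Log2 ratio of knockout over wild type for the 39 measured members, with points for the ratio of FPKM + 1, bars for the 95% counting interval of the read ratio and dashed lines at 1.5-fold. The Q genes run from −3.79 to 1.28, all 9 class II genes lie right of 0, and the 9 supply and loading genes lie between −0.22 and 0.14.

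The T genes had 1 member higher and 1 lower among 6 measured, against 2.71% and 5.19% of all measured genes, with a median of 0.15. H2-T23 encodes Qa-1, the ligand of the CD94/NKG2 receptors of NK and CD8 T cells, and lies on chromosome 17 from 36029977 to 36032701. It was at 152 FPKM in wild-type cells and 118 FPKM in knockout cells, a ratio of −0.36 (interval −0.43 to −0.29). H2-T-ps, annotated as a pseudogene by its name and 95.6% identical to H2-T23, was at 79.8 and 97.0 FPKM, a ratio of 0.28. The 2 ran in opposite directions, and their sum had a ratio of −0.11.

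H2-T10 and H2-T22 encode ligands read by some γδ T cells. H2-T10 was at 15.2 FPKM in wild-type cells and 25.4 FPKM in the knockout, a ratio of 0.70 (interval 0.62 to 0.86). Its reads, solved from the deposited p, were 1.97 times those its transcript length gives, so this interval may be too narrow. H2-T22 was at 61.2 and 61.7 FPKM, a ratio of 0.01 (interval −0.08 to 0.10). Their transcripts are 97.0% identical over 58.0% of the shorter one, and the summed pair, at 76.4 and 87.1 FPKM, had a ratio of 0.19. The call for H2-T10 did not hold for the pair. H2-T24 was at 4.42 and 2.49 FPKM (−0.64). H2-T18 was at 1.26 and 1.80 FPKM (0.31). H2-T3, like H2-T18 known as a gene for the thymus leukaemia antigen, was at 0.36 and 0.28 FPKM, below the minimum.

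Both measured M genes were lower in the knockout. H2-M3, whose product presents peptides that begin with formyl-methionine, lies on chromosome 17 from 37270234 to 37274485 and was at 19.4 FPKM in wild-type cells and 11.8 FPKM in the knockout. Its ratio was −0.67 (interval −0.92 to −0.52). H2-M2 was at 1.79 and 0.37 FPKM, a ratio of −1.03 on about 54 and 11 reads. H2-M5 and H2-M10.3 were below the minimum. H2-Bl, a further class I locus, was at 3.40 and 2.07 FPKM (−0.52). H2-Ke6 shares the H2 symbol by position only, since it encodes a dehydrogenase, and was at 39.9 and 44.1 FPKM (0.14).

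Over all 21 heavy chain genes (classical, Q, T and M), 18 were measured, of which 3 were higher, 6 lower and 9 within 1.5-fold. Among all measured genes the shares were 2.71% higher and 5.19% lower. Their median was −0.20, while the ratio of their summed levels was 0.16, from 2455 FPKM in the wild type to 2742 FPKM in the knockout. The median and the sum thus had opposite signs. H2-D1 was 367 FPKM higher and made up 29.3% of the heavy chain sum in the wild type and 39.6% in the knockout, and H2-K1 made up 40.6% and 35.1%. With H2-K1 turned higher by the read ratio of its deposited p, the knockout shares would be 37.2% for H2-D1 and 39.0% for H2-K1. Without H2-D1 the ratio of the sum was −0.07, and it would be 0.08 with H2-K1 so turned, so its sign is uncertain. The ratio of the whole sum would be 0.11 with H2-K1 lower and 0.25 with it higher. The 6 lower genes were minor parts of the sum in the wild type, with H2-Q2 the most abundant at 0.959% and H2-M3 next at 0.789%.

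**Figure D3:**
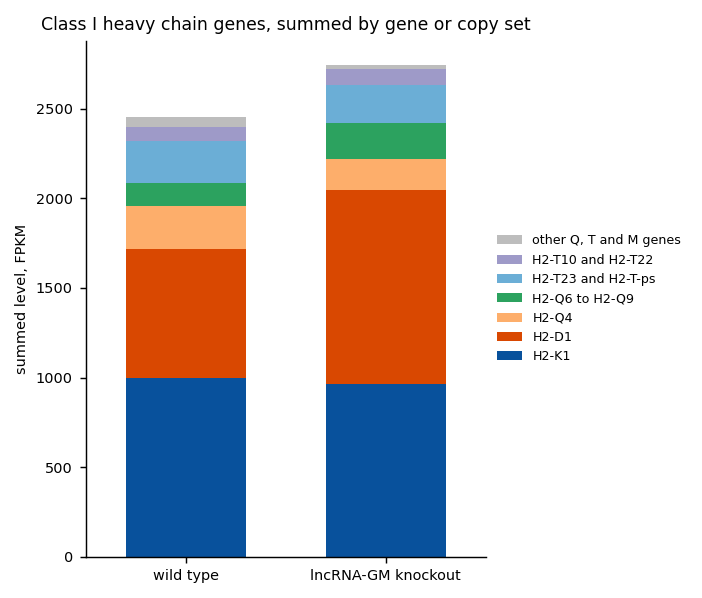
Summed FPKM of the 21 class I heavy chain genes in the wild-type and the knockout library, stacked by gene or by set of near-identical copies, with no error bars because each genotype had 1 library. The sum is 2455 FPKM in wild-type cells and 2742 FPKM in knockout cells, and the H2-D1 and H2-Q6 to H2-Q9 blocks are taller in the knockout while H2-Q4 is shorter.

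Some class I loci carry other symbols and are not members. Gm10499, which lies between H2-T10 and Gm8909 in the H2 region and whose transcript is 93.9% identical to H2-Bl, was at 28.6 FPKM in wild-type cells and 4.09 FPKM in the knockout, a ratio of −2.54. LOC547349 was at 13.7 and 1.89 FPKM (−2.34). Both were lower, as H2-Q2 was. Gm11127 had a ratio of −0.43 and Gm8909 of 0.03, and Gm7030 was below the minimum. With these loci and H2-Bl added, the ratio of the class I sum was 0.13.

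The genes that supply and load class I peptides showed no member past 1.5-fold in either direction. Their median was −0.11, with 8 of 9 ratios below 0. B2m, the light chain shared by all class I molecules, lies on chromosome 2 from 122147687 to 122153082 and was the exception in sign, at 1591 FPKM in wild-type cells and 1754 FPKM in knockout cells (0.14, interval 0.12 to 0.17). The level of B2m per summed heavy chain was 0.648 in the wild type and 0.640 in the knockout, and would be 0.662 or 0.601 in the knockout with H2-K1 turned lower or higher.

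The immunoproteasome genes Psmb8, Psmb9 and Psmb10 encode catalytic subunits that replace those of the constitutive proteasome and are inducible by interferon-γ. Psmb8 was at 175 FPKM in wild-type cells and 150 FPKM in knockout cells, Psmb9 at 97.8 and 83.6 FPKM, and Psmb10 at 31.1 and 28.7 FPKM. Their ratios were −0.22, −0.22 and −0.11. Set against its constitutive counterpart, Psmb8 per Psmb5 went from 2.67 to 2.11, Psmb9 per Psmb6 from 1.52 to 1.26 and Psmb10 per Psmb7 from 0.377 to 0.355. All of the 3 ratios of levels were somewhat lower in the knockout, and none differed by 1.5-fold.

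The transporter genes Tap1 and Tap2 were at 89.1 and 84.4 FPKM and at 83.8 and 82.8 FPKM in wild-type cells and the knockout, with ratios of −0.08 and −0.02. Tapbp, which encodes tapasin, was at 94.4 FPKM in wild-type cells and 81.1 FPKM in the knockout (−0.22, interval −0.28 to −0.16). The related editor gene Tapbpl was at 32.1 and 29.2 FPKM (−0.13), and Erap1, whose product trims peptides in the endoplasmic reticulum, was at 19.7 and 19.0 FPKM (−0.05). Nlrc5, the transactivator of class I genes, lies on chromosome 8 from 94434335 to 94527272. It was at 37.7 FPKM in wild-type cells and 32.3 FPKM in the knockout, a ratio of −0.22 (interval −0.28 to −0.17), close to those of Psmb8, Psmb9 and Tapbp.

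Class II pathway genes were low in both libraries and higher in the knockout. Of 10 genes 9 were measured. Of these, 5 were at least 1.5-fold higher and 0 lower, against 2.71% and 5.19% of all measured genes. All 9 ratios were above 0, with a median of 0.69 beside −0.03 over all measured genes. Summed over the 10 genes, the level was 53.1 FPKM in wild-type cells and 101 FPKM in knockout cells. In RNA from a whole culture, a change in the number of cells that make these transcripts and a change in RNA per cell cannot be told apart.

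H2-Ab1 and H2-Aa encode the β and α chains of I-A, the class II molecule of C57BL/6 mice. H2-Ab1 lies on chromosome 17 from 34263227 to 34269418, and its ratio was 0.96 (interval 0.80 to 1.25) from 10.6 FPKM in wild-type cells and 21.6 FPKM in the knockout. H2-Aa, from 34282744 to 34287823, had 4.06 and 7.16 FPKM, a ratio of 0.69 (interval 0.42 to 1.22) on about 85 and 148 reads. H2-Eb1, the β chain of I-E, was at 2.12 and 4.34 FPKM, a ratio of 0.78. The level of H2-Ab1 per H2-Aa was 2.62 in the wild type and 3.01 in the knockout, and per H2-Eb1 it was 5.02 and 4.97, so the 3 genes kept close to the same proportions. H2-Eb2 was at 0.09 and 0.15 FPKM, below the minimum.

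The invariant chain Cd74 holds the groove of new class II molecules shut until the endosome. At 15.4 FPKM in wild-type and 39.4 FPKM in knockout cells, it had the highest ratio of the members, 1.30 (interval 1.18 to 1.53), on about 373 and 936 reads. The level of Cd74 per H2-Ab1 was 1.45 in the wild type and 1.82 in the knockout. Of the genes for the peptide editor H2-DM, H2-DMa was at 9.14 and 13.8 FPKM, a ratio of 0.54 and just inside 1.5-fold. H2-DMb1 was at 1.76 and 2.44 FPKM (0.32) and H2-DMb2 at 1.92 and 2.03 FPKM (0.05). The 2 β chain genes are 95.7% identical, and their sum had a ratio of 0.23 (interval −0.11 to 0.67), which includes 0. Of the genes for H2-O, which restrains H2-DM, H2-Oa was at 7.18 and 8.47 FPKM (0.21) and H2-Ob at 0.79 and 2.11 FPKM (0.80). Ciita, the master transactivator of class II genes, was at 0.13 FPKM in wild-type cells and 0.19 FPKM in the knockout, on about 11 and 15 reads (interval −0.67 to 1.82), so that a change of its RNA was not detectable at this depth.

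Class II promoters are built on an S-X-Y module that is bound by the RFX, CREB and NF-Y factors. The windows of H2-Aa (chr17:34287774-34288073, minus strand) and H2-Eb1 (chr17:34305617-34305916, plus strand) are shown because these genes were higher together. Capitals mark matches on either strand to the X1 core AACNGATG, the X2 core TGACG and the Y box GATTGG.
H2-Aa: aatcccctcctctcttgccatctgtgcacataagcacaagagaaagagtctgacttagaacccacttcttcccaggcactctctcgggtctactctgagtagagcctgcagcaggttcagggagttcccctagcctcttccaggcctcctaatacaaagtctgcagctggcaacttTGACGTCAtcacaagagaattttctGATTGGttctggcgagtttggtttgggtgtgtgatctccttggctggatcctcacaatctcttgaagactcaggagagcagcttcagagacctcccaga
H2-Eb1: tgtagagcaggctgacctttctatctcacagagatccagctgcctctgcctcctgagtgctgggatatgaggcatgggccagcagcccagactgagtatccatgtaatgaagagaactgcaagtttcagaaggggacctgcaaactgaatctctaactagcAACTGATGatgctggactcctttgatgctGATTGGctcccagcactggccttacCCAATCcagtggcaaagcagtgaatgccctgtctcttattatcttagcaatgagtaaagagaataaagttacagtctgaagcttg
H2-Aa held X2 matches on both strands, which overlap, and a Y box, and H2-Eb1 held X1 and Y box matches. Of the 8 class II genes with a window, 7 held a Y box match (16.1% of all windows), 4 an X1 match (2.32%), 1 an X2 match, and 0 a κB or ISRE match. The X1 match was shared by H2-Eb1, at 0.78, and by H2-DMb1 and H2-DMb2, at 0.32 and 0.05.

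Markers of cells that make class II were also low. Of the B cell markers, 4 of 8 were measured, with a median of 0.46 and Cd79b the only one past 1.5-fold. The level summed over all 8 was 6.24 FPKM in wild-type cells and 9.94 FPKM in the knockout. Among those under 1 FPKM, Ms4a1 (0.18 and 0.13 FPKM), Blk (0.85 and 0.65 FPKM) and Fcrla (0.19 and 0.13 FPKM) were listed lower in the knockout. The counting intervals of Ms4a1, Blk and Fcrla included 0. Pax5 was listed higher, at 0.22 and 0.79 FPKM (interval 0.40 to 3.58). Of the dendritic cell, macrophage and monocyte markers, 9 of 17 were measured, with 4 higher, 2 lower, a median of 0.54 and a level summed over all 17 of 81.5 and 70.5 FPKM. Mmp12, Ccl22, Cd14 and Lyz2 were higher, Mmp12 from 0.52 to 7.72 FPKM and Ccl22 from 1.02 to 6.25 FPKM. Batf3, which activated T cells are also known to express, went from 62.5 to 34.3 FPKM and made up most of the summed level, and Xcr1 went from 3.11 to 1.06 FPKM. Cd68 was at 3.59 and 5.68 FPKM, Fcer1g at 3.98 and 5.29 FPKM and Tyrobp at 2.28 and 2.89 FPKM, all within 1.5-fold and above 0 in ratio. The counting intervals of Fcer1g and Tyrobp included 0, and that of Cd68 did not. Some defining markers under 1 FPKM were also listed somewhat above the wild type in the knockout. They were Itgax at 0.83 and 0.91 FPKM, Flt3 at 0.63 and 0.87 FPKM and Zbtb46 at 0.44 and 0.58 FPKM. Csf1r was at 0.09 and 0.26 FPKM and Adgre1 at 0.06 and 0.08 FPKM. The counting interval included 0 for Itgax (−0.50 to 0.77), Flt3 (−0.08 to 1.02), Zbtb46 (−0.45 to 1.27) and Adgre1 (−1.86 to 2.84). That of Csf1r (0.31 to 2.91) did not. Itgam was at 0.85 and 0.82 FPKM, and Clec9a was listed at 0 for wild-type and at 0.06 FPKM for knockout cells. The part of these cells in the class II values was not tested.

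**Figure D4:**
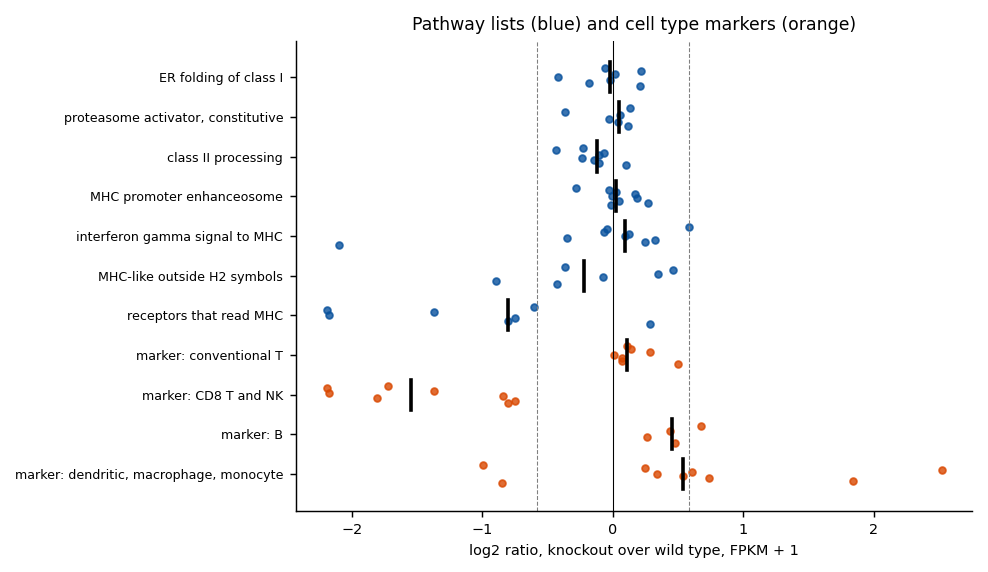
Log2 ratio of each measured gene (points) and the median (black bars) for the 7 pathway lists in blue and the 4 cell type marker lists in orange, with dashed lines at 1.5-fold. The folding, proteasome, processing and enhanceosome lists lie within 1.5-fold, the receptor list has 6 of 7 genes on the lower side, and the markers of dendritic cells, macrophages and monocytes spread to both sides.

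The wider pathway was described with lists that were not members. In the endoplasmic reticulum folding list 0 of 7 genes were 1.5-fold apart (median −0.02), with the chaperone genes Calr at 359 and 416 FPKM and Hspa5 at 294 and 220 FPKM. In the list of proteasome activator and constitutive catalytic subunits 0 of 6 were 1.5-fold apart (median 0.04), with the interferon-inducible activator subunit genes Psme2 at 275 and 214 FPKM and Psme1 at 134 and 139 FPKM. The class II processing list, of cathepsins, the thiol reductase Ifi30 and others, had 0 of 8 measured genes apart (median −0.12), with Ctsb at 121 and 131 FPKM and Ctsd at 110.0 and 102 FPKM. Its cathepsin S gene Ctss was at 64.9 and 55.1 FPKM. In these supply steps the levels of the 2 libraries lay close, unlike those of the class II molecules themselves.

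Among factors of MHC promoters, 0 of 9 genes were 1.5-fold apart (median 0.02), with Nfya at 28.6 and 32.7 FPKM and Nfyc at 26.2 and 29.7 FPKM. The list of the interferon-γ signal, a main inducer of MHC genes, had 1 of 9 genes lower, 0 higher and a median of 0.09. The lower gene was the cytokine gene Ifng, at 26.8 FPKM in wild-type cells and 5.51 FPKM in the knockout. Irf1, a transcription factor gene of the same signal, had a ratio of −0.35, whereas the receptor genes Ifngr1 and Ifngr2 had ratios of 0.24 and 0.32. Socs1, an inhibitor of the signal, was at 158 and 238 FPKM (0.58), just inside 1.5-fold. Ifng was thus low in the library in which H2-D1, H2-Q7 and 5 of 9 measured class II genes were at least 1.5-fold higher. In the same library H2-Q2 and H2-M3 were at least 1.5-fold lower. The interferon-inducible proteasome genes Psmb8, Psmb9, Psmb10 and Psme2 had ratios of −0.22, −0.22, −0.11 and −0.36. Psme1 was at 0.05, and all of these proteasome genes lay within 1.5-fold. Whether these values are linked was not tested.

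MHC-like genes outside the H2 symbols had 1 of 6 measured genes lower, the neonatal Fc receptor gene Fcgrt at 1.25 and 0.21 FPKM, and a median of −0.22. Of the 7 genes for receptors and coreceptors that bind MHC molecules, 6 were lower and Cd4, the class II coreceptor, was not, at 174 FPKM in wild-type cells and 213 FPKM in knockout cells (0.28). The class I coreceptor genes Cd8a and Cd8b1 were at 98.1 and 55.7 FPKM (−0.80) and at 212 and 126 FPKM (−0.75). In the wild-type library Cd8b1 was thus above Cd4, though the cultures began from naive CD4+ T cells. Lag3, a class II receptor, was at 107 and 70.2 FPKM (−0.60). Klrd1 and Klrc1, which encode the CD94/NKG2A receptor of Qa-1, were at 77.2 and 29.2 FPKM (−1.37) and at 40.1 and 8.09 FPKM (−2.18). Klrk1, which encodes NKG2D, had a ratio of −2.19. H2-T23, the gene of Qa-1, lay within 1.5-fold, at −0.36, or −0.11 with its copy H2-T-ps. Except for Lag3, the 6 lower genes are also in the list of CD8 T and NK cell markers, and the part of such cells was not tested.

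Most members lie together in the H2 region of chromosome 17, which they span from 33919478 to 37483554. In it 30 members were measured, with 7 higher, 6 lower and a median of −0.0025, and 81 other genes, with 3 higher, 4 lower and a median of 0.05. Over all measured genes 2.71% were higher and 5.19% lower, so the 81 other genes were called at about those shares. The 3 higher neighbours were the adjacent cytokine genes Lta, Tnf and Ltb, with ratios of 1.61, 0.86 and 0.97. The lower neighbours were Gm10499, the receptor kinase gene Ddr1, at −2.52, and the adjacent genes Msh5 and Sapcd1, at −1.36 and −1.32. In chromosomal order, H2-Ob, H2-Ab1, H2-Aa and H2-Eb1 followed each other and were all higher, at 0.80, 0.96, 0.69 and 0.78. The 4 measured genes just before them, Psmb9, Tap1, Psmb8 and Tap2, were at −0.22, −0.08, −0.22 and −0.02. H2-D1 and the Q genes also followed each other, without a common direction. H2-Q8, H2-Q9 and H2-T18 were not placed, since the annotations used here gave them no shared position.

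**Figure D5:**
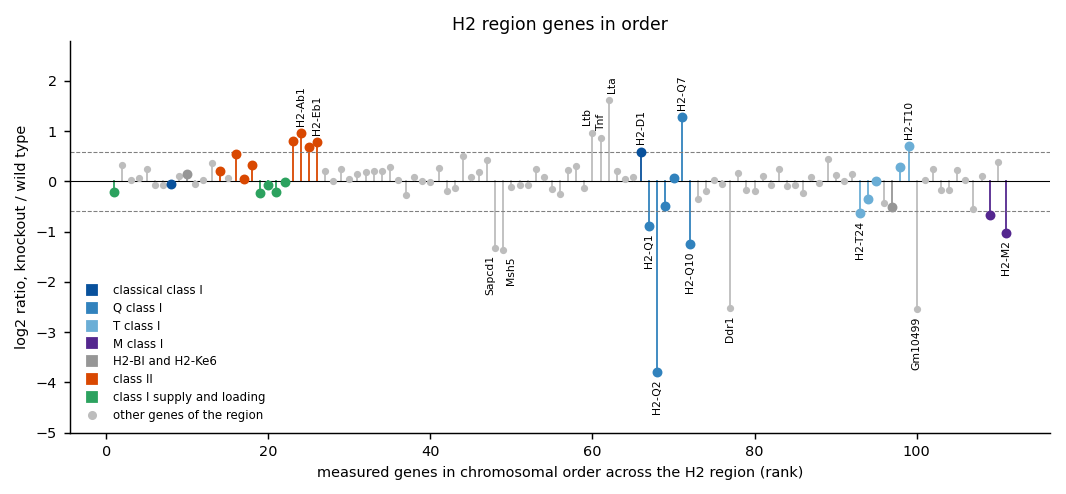
Log2 ratio (vertical axis) of the 111 measured genes of the H2 region in chromosomal order (horizontal axis, rank), with members coloured by group, other genes in grey and dashed lines at 1.5-fold. The class II genes lie above 0 in 2 stretches with 4 supply genes below 0 between them, the Q genes lie on both sides of 0 with H2-Q2 at −3.79, and most grey genes lie within 1.5-fold.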

How the data were processed

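Per the labels' protocols, the RNA of 2 Th17 cultures was sequenced by Illumina HiSeq. Bowtie2, RSEM and GRCm38.p6 are named in the submitters' processing notes, without versions; for strandedness, filters and multiply mapped reads, the method is not given in the sources used here. A table of 17002 genes was deposited. Its expression columns were read as FPKM made by the authors, a unit inferred because they sum to 517664 and 514343. The authors' deposited log2 ratio, p-value and FDR (a score, not used) come from a comparison of 1 library with 1 library. No replicate shows whether the samples are biological or technical, and no test was run.

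Computed here were ratios of FPKM + 1, counts past 1.5-fold among genes with at least 1 FPKM in 1 library, and reads. The deposited p-values follow a 2-library Poisson comparison, which gave whole reads within 0.05 for 119 of 119 genes listed at 0 in 1 library. Depth was about 19.5 M (quartiles 18.6 and 19.9 over 265 genes) and 19.2 M fragments. Reads were solved from the p for 31 members and taken from GENCODE M21 transcript length for 13. Copies were transcripts of at least 800 bases with 95% identity over 50% (BLAST 2.17.0). Every measured member was named; of each pathway list, the genes past 1.5-fold or else the 2 most abundant were named by rule, and the others after their values were seen. Members and lists were chosen with earlier results of these data known, and 1 list gene is not reported here and was left out of its list. Steps were tested on simulated Poisson reads with 1 transcript length for all genes and no reads shared between genes. The division of reads among copies was thus not tested. Software was Python 3.11.15 with scipy 1.17.1, numpy 2.4.6, matplotlib 3.10.9 and pandas 2.3.3. Alternatives were the pseudocount, minimum, scaling, fold, copies and reads, and, added after seeing the data, other class I loci, H2-D1 left out and H2-K1 turned to the read ratio of its deposited p.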

Additional observations from a re-analysis of the deposited data

How the results depend on the processing

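The count of 6 members at least 1.5-fold lower was 2 with a pseudocount of 5 FPKM, 3 with a minimum of 5 FPKM and 3 at a fold of 2. The count of 8 higher members was 5 with that pseudocount and 2 at a fold of 2. The class I heavy chain median of −0.20 was −0.15 with a pseudocount of 5 FPKM, −0.054 with no minimum, −0.020 with a minimum of 5 FPKM, −0.18 after rescaling to a median ratio of 0 and −0.30 with copies summed. The ratio of the summed heavy chains, 0.16, was 0.19 after that rescaling and 0.21 with reconstructed reads. Alternatives chosen after seeing the data gave this sum a ratio of 0.13 with other class I loci added and −0.068 without H2-D1. With H2-K1 turned lower or higher by the read ratio of its deposited p, the sum was at 0.11 or 0.25 and the median at −0.28 or −0.17. The class II median of 0.69 was 0.80 with a pseudocount of 0.1 FPKM, 0.39, below the 1.5-fold line, with one of 5 FPKM, and 0.82 with reconstructed reads. The supply and loading median of −0.11 was −0.083 after rescaling to a median ratio of 0. No member called higher or lower changed sign under other pseudocounts and scalings. The summed heavy chain ratio did without H2-D1, and Tap2, within 1.5-fold, went from −0.02 to 0.01 after rescaling to a median ratio of 0. Among single members, 149 of the values under other pseudocounts and scalings stayed within counting error, 7 moved beyond it, among them H2-Q2 with both pseudocounts, and 10 changed their side of 1.5-fold. With a pseudocount of 5 FPKM these were H2-Q1, H2-T24, H2-M3, H2-M2, H2-Aa, H2-Eb1 and H2-Ob, which no longer passed. With a pseudocount of 0.1 FPKM H2-DMa and H2-Bl passed, and H2-Bl also did on the TPM scale. The deposited p of H2-Bl, like that of H2-K1, did not follow from its FPKM ratio at the reads its length gives. Depth limits genes under 1 FPKM such as Ciita, and 1 library per genotype limits all results.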
